A study of Homo sapiens with 8 samples.

Results

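The AP-1 and EGR immediate early factors are 10 genes, namely FOS, FOSB, FOSL1, FOSL2, JUN, JUNB, JUND, EGR1, EGR3 and ATF3. They were taken by symbol, but the choice was made with earlier results of these data known. All 10 were found among the 26475 genes of the count table. Of these, 9 had enough counts to be tested, and FOSL1 did not. The libraries were made from BT474, a cell line of ERBB2-amplified breast cancer, plated below confluence. By their genotype label, 4 libraries came from NPY1R high cells and 4 from NPY1R low cells, and NPY1R encodes a receptor for neuropeptide Y. The series title concerns drug tolerance to lapatinib, a kinase inhibitor that blocks ERBB2, but no drug is named for these libraries. How the high and low cells were separated, and whether replicates were separate cultures, is not given in the sources used here, so the p-values measure the spread between these libraries, which may be technical.

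Immediate early genes are transcribed within minutes of a signal, without new protein synthesis, and their RNAs are short-lived. Growth factor and stress signals reach them through MAP kinases, which act on serum response factor with its ETS partners and on CREB. FOS and JUN proteins pair through leucine zippers to form AP-1, ATF3 is a related zipper protein, and EGR1 and EGR3 are zinc finger factors. In breast epithelial cells these factors respond to ERBB receptor signalling, and they are also known to respond to handling and dissociation of cells.

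Elements that these signals are known to use stand close before several of the start sites. The 150 bases upstream of the RefSeq start (GRCh38.p14) are shown for the 4 factors that were higher in NPY1R high cells and for JUND, which did not pass the test. They are written 5′ to 3′ on the strand of the gene, and capitals mark TGACG or its reverse complement CGTCA, the core of the CREB-binding element, and CArG boxes, which serum response factor binds.
FOS, chr14:75278678-75278827, plus strand: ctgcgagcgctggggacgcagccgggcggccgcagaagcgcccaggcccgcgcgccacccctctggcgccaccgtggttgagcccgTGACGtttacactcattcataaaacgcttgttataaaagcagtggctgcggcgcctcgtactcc
EGR1, chr5:138465329-138465478, plus strand: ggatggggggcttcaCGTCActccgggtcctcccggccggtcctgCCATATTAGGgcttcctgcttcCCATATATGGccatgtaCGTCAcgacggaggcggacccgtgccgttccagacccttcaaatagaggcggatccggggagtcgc
FOSL2, chr2:28392708-28392857, plus strand: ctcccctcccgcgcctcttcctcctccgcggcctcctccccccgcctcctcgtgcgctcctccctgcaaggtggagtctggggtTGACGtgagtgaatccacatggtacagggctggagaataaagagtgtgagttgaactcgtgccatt
JUN, chr1:58784048-58784197, minus strand: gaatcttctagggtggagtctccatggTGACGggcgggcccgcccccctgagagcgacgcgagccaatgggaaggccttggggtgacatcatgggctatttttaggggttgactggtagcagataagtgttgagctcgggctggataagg
JUND, chr19:18281623-18281772, minus strand: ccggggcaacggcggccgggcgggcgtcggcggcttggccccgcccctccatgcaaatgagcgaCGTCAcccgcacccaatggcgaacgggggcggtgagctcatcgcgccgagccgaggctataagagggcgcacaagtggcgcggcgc

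In the 250 bases before the start, TGACG stood on either strand for 7 of the 8 factors searched, all but ATF3, against 21.2% of the 35116 promoters in the table. ATF3 had 2 windows in the table, starting at 212565157 and 212614768 on chromosome 1, the latter inside the gene, and neither held TGACG. By the GENCODE gene positions given below, the FOSL2 and JUN stretches printed above also lay wholly inside the gene. The end of the FOS stretch did too. These stretches are therefore upstream of the RefSeq start, but not wholly outside the annotated gene. The full element TGACGTCA was found in JUND alone among the 8 factors, against 1.65% of promoters. CArG boxes stood only before EGR1, at positions -105 and -83 from the start, against 1.16% of promoters. The EGR element GCGNGGGCG was found before EGR1 (8.41% of promoters), and the AP-1 element TGANTCA before none of the 8 (6.57% of promoters). Only these exact letters were searched, so the longer tgacatca in the JUN sequence above was not counted. TGACG was present both before factors that were higher in NPY1R high cells and before factors that did not pass the test, as the JUND sequence shows. These matches describe letters and not bound sites, and elements farther out were not searched.

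Libraries held from 18025648 to 30609791 expected counts (estimated counts that need not be whole), and the groups overlapped in depth. NPY1R itself, in CPM (counts scaled to library size), averaged 856.5 ± 170.4 in the high and 95.5 ± 5.65 in the low group (SD, n = 4 each), with no overlap. The 10 luminal epithelial markers had a summed level of 7517 to 8647 CPM in NPY1R high and 7414 to 9744 CPM in NPY1R low libraries, with GATA3 and ESR1 higher and EPCAM and FOXA1 lower past the threshold. Markers of other cell types summed to at most 18.2 CPM in any library for each list, and KRT14, CNN1, COL1A2, DCN, PDGFRB, CD3E and TEK had no count. Other markers on these lists were detected. COL1A1 averaged 14.1 CPM in the high and 15.5 in the low group, VWF 11.7 and 16.1, and TP63 6.36 and 6.28. The groups were compared by the quasi-likelihood test of edgeR, and a gene was called where its p, adjusted after Benjamini and Hochberg, was under 0.05. Of all 14008 genes tested 13.6% were called, 5.78% higher and 7.81% lower in NPY1R high. With upper-quartile in place of TMM scaling, 56.3% of calls were higher against 42.5%.

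Among the 9 tested factors, FOS, FOSL2, EGR1 and JUN rose in NPY1R high cells and none fell, so 4 of 9 were called higher where 5.78% of all tested genes were. The rises ranged from 1.22-fold for JUN to 1.94-fold for FOS. The median log2 change of the 9 factors was 0.32, and that of all tested genes was -0.03. Bulk RNA does not tell a higher level in every cell from a larger share of cells that express the gene. At an adjusted p under 0.01, 2 of the 9 remained, FOS and FOSL2, where 7.37% of all tested genes were called, 3.36% higher and 4.01% lower. The libraries of the groups did not overlap for FOS, FOSL2 and JUN, which were higher, and for JUND, which was lower, against 20.2% of all tested genes, 8.77% higher and 11.4% lower.

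**Figure D1:**
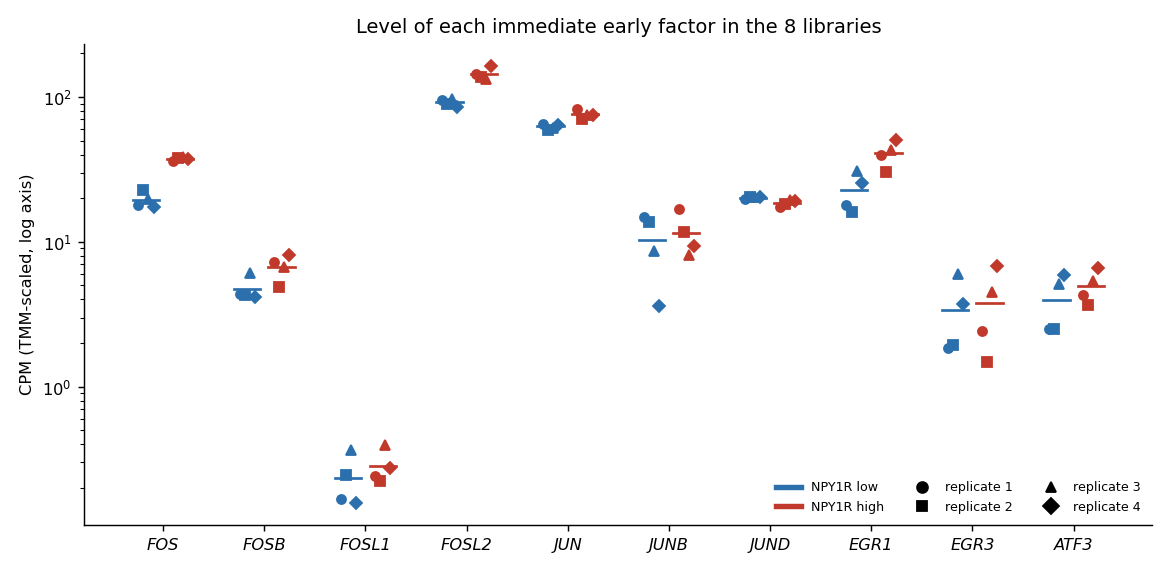
CPM of each factor on a log axis in the 4 NPY1R low (blue) and 4 NPY1R high (red) libraries, with a symbol for each replicate number and a line at the group mean. FOS, FOSL2 and JUN separate the groups with NPY1R high above, JUND separates them with NPY1R high below, and JUNB, EGR3 and ATF3 overlap and spread by replicate number.

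FOS (chr14:75278774-75282230, plus strand, GENCODE 29 on GRCh38, as for the positions that follow) is the founding partner of JUN in AP-1 and a standard readout of recent ERK signalling. It had 36.0, 38.2, 38.7 and 37.2 CPM in NPY1R high replicates 1 to 4, and 17.9, 22.7, 19.7 and 17.4 CPM in NPY1R low replicates 1 to 4. The high libraries lay close together, and every one stood above every low library. The log2 fold change was 0.95 (SE 0.09, edgeR adjusted p = 0.000114).

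FOSL2 (chr2:28392448-28417312, plus strand), also called FRA2, is a FOS relative with a longer-lasting expression than FOS. Its levels in NPY1R high replicates 1 to 4 were 144.0, 136.6, 133.3 and 163.9 CPM. The NPY1R low replicates 1 to 4 had 94.6, 89.8, 97.0 and 85.8 CPM. The groups did not overlap, and the log2 fold change was 0.65 (SE 0.07, edgeR adjusted p = 0.000295). An antisense gene, FLJ31356, and AC104695.3 on the same strand overlap FOSL2 in GENCODE 29, and the strand setting of the counting is not given in the sources used here. FLJ31356 itself was at 0.563 ± 0.202 CPM in the high group against 0.637 ± 0.106 in the low group (SD, n = 4 each).

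FOSB (chr19:45467995-45475179, plus strand), a FOS relative best known for its lasting form in neurons, had 7.25, 4.83, 6.73 and 8.10 CPM in NPY1R high replicates 1 to 4. It had 4.33, 4.27, 6.09 and 4.12 CPM in the NPY1R low replicates. NPY1R low replicate 3 lay above NPY1R high replicate 2, so the groups overlapped. The log2 change was 0.52 (95% interval 0.10 to 0.94), which did not pass the correction over all genes (unadjusted p = 0.0209, edgeR adjusted p = 0.108). FOSB overlaps ERCC1 on the other strand, which had a log2 change of -0.07 (SE 0.15).

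FOSL1 (chr11:65892049-65900573, minus strand), also called FRA1, is the FOS relative associated with mesenchymal and basal-like breast cancer cells. It had only 4 to 11 counts in a library, namely 7, 6, 11 and 5 in NPY1R high and 5, 7, 8 and 4 in NPY1R low replicates 1 to 4. These counts overlapped and were too few for the test.

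JUN (chr1:58780788-58784327, minus strand), the partner of FOS proteins that can also pair with itself, had 83.2, 70.2, 75.6 and 74.9 CPM in NPY1R high replicates 1 to 4. It had 65.5, 59.3, 60.9 and 64.3 CPM in NPY1R low replicates 1 to 4. The groups did not overlap, with a log2 fold change of 0.28 (SE 0.07, edgeR adjusted p = 0.0175). The call was lost without NPY1R high replicate 1 (adjusted p 0.0532), NPY1R low replicate 2 (0.0509) or NPY1R low replicate 3 (0.0584), with a log2 change of 0.24 to 0.27 in those fits.

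JUND (chr19:18279760-18281622, minus strand), the JUN relative that is typically present in resting cells, showed the steadiest level of all the factors. NPY1R high replicates 1 to 4 had 17.5, 18.3, 19.4 and 19.2 CPM, and NPY1R low replicates 1 to 4 had 19.8, 20.3, 20.5 and 20.2 CPM. Every high library lay below every low library, but the difference was not called. The log2 change was -0.12 (95% interval -0.28 to 0.04, edgeR adjusted p = 0.337). Its standard deviation within groups, 0.051 in log2 CPM, was above that of only 3.46% of tested genes.

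JUNB (chr19:12791496-12793315, plus strand), a JUN relative that can restrain JUN at some promoters, was the least even of the family. It had 16.7, 11.8, 8.11 and 9.42 CPM in NPY1R high replicates 1 to 4 and 14.9, 13.7, 8.69 and 3.61 CPM in NPY1R low replicates 1 to 4. The groups overlapped, with NPY1R high replicate 1 above every low library and NPY1R low replicate 4 below every high one, and in both groups replicates 1 and 2 stood above replicates 3 and 4. The log2 change was 0.17 (95% interval -0.69 to 1.02). HOOK2 overlaps JUNB on the other strand and had a log2 change of -0.14 (SE 0.19).

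EGR1 (chr5:138465490-138469315, plus strand) binds GC-rich promoters and, like FOS, follows ERK signalling through CArG boxes of the kind printed above. It had 39.7, 30.3, 42.7 and 50.6 CPM in NPY1R high replicates 1 to 4, and 17.9, 16.2, 30.9 and 25.5 CPM in NPY1R low replicates 1 to 4. NPY1R high replicate 2 lay just under NPY1R low replicate 3, so the groups overlapped by those libraries alone. The log2 fold change was 0.85 (SE 0.22, edgeR adjusted p = 0.0259). The call was lost on leaving out 5 of the 8 libraries in turn, namely without NPY1R high replicate 1 (adjusted p 0.0539), 3 (0.0618) or 4 (0.0746), or without NPY1R low replicate 1 (0.0692) or 2 (0.055), where the log2 change was 0.72 to 0.87.

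EGR3 (chr8:22687659-22693302, minus strand), a relative that EGR and ERK signals induce, had 2.41, 1.49, 4.49 and 6.77 CPM in NPY1R high replicates 1 to 4. It had 1.85, 1.93, 5.99 and 3.73 CPM in NPY1R low replicates 1 to 4. The groups overlapped, with a log2 change of 0.16 (95% interval -0.95 to 1.27), and in each group replicates 3 and 4 stood above replicates 1 and 2. AC055854.1 overlaps EGR3 on the other strand. EGR2, a further relative, was scarcer, at 0.933 ± 0.616 CPM in the high group against 0.429 ± 0.263 in the low group (SD, n = 4 each), and its log2 change of 1.11 (SE 0.58) did not pass (edgeR adjusted p = 0.271), but passed when the model separated replicates 1 and 2 from 3 and 4 (0.0174). EGR4 had 1 to 3 counts in a library.

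ATF3 (chr1:212565334-212620777, plus strand), a repressor induced by stress and by the integrated stress response, had 4.26, 3.68, 5.32 and 6.61 CPM in NPY1R high replicates 1 to 4. NPY1R low replicates 1 to 4 had 2.48, 2.49, 5.08 and 5.89 CPM. The groups overlapped, with a log2 change of 0.32 (95% interval -0.38 to 1.01). The interval is wide, so ATF3 is not shown to be alike in both groups.

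**Figure D2:**
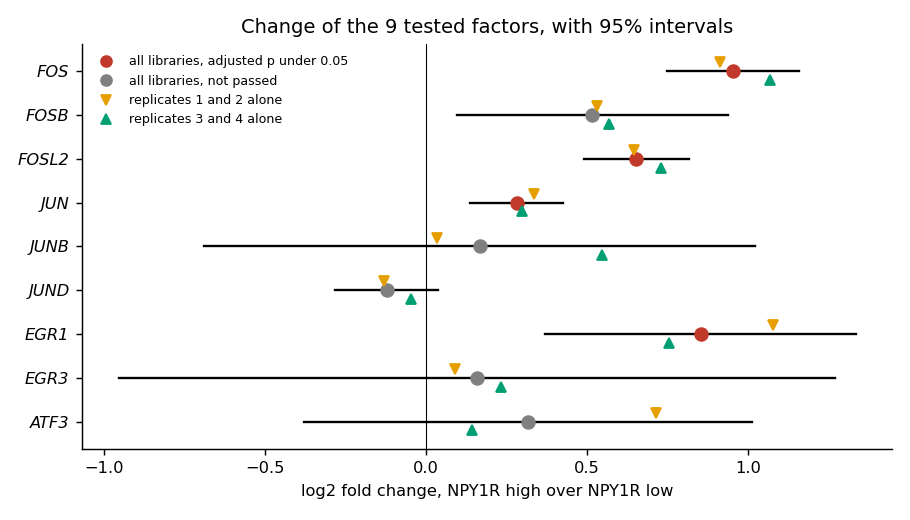
The log2 fold change of NPY1R high over NPY1R low for the 9 tested factors, with 95% intervals (lines), red where the adjusted p was under 0.05. Triangles give the change in replicates 1 and 2 alone and in replicates 3 and 4 alone. They lie close together for FOS, FOSL2 and JUN and also for FOSB, JUND and EGR3, which were not called. They lie farther apart for EGR1 (1.08 and 0.75) and farthest apart for JUNB and ATF3.

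The factors differed in how far they varied with replicate number. EGR1, EGR3 and ATF3 were higher in replicates 3 and 4 than in replicates 1 and 2 of both groups, by 0.42, 1.505 and 0.57 on the log2 CPM scale in NPY1R high and by 0.72, 1.29 and 1.11 in NPY1R low. JUNB was lower in replicates 3 and 4, with differences of -0.68 in NPY1R high and -1.34 in NPY1R low. FOS, FOSL2, JUN and JUND differed by no more than 0.12 either way. This division of the replicates was known from earlier results of these data and is not a batch that the labels name.

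EGR1 separated the groups within replicates 1 and 2 and within replicates 3 and 4, a division drawn from these same data. The share of all tested genes that did so was not counted, so this separation is a description only. In replicates 1 and 2 the lowest high library had 30.3 CPM and the highest low library 17.9 CPM, and in replicates 3 and 4 these were 42.7 and 30.9 CPM. Its log2 change was 1.08 in replicates 1 and 2 alone (adjusted p 4.63e-05, where 21.2% of genes were called) and 0.75 in replicates 3 and 4 alone (adjusted p 0.0214, where 6.35% were called), by edgeR on 2 libraries a group. FOS gave 0.91 and 1.07, FOSL2 0.65 and 0.73, and JUN 0.34 and 0.30 in the same fits, with JUN not passing in replicates 3 and 4 (adjusted p 0.121). ATF3 gave 0.72 in replicates 1 and 2, with an adjusted p of 0.0287, and 0.14 in replicates 3 and 4, where it was 0.775. Whether the ATF3 change differed between these subsets was not tested.

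The libraries also carried a trend with GC content that differed between replicates, and its part in these results was not tested beyond the values given here. The GC content of the principal transcripts ranged from 50.8% for ATF3 to 69.7% for JUND, where the median of tested coding genes was 48.7%. For JUNB, at 64.9%, the trend of all genes gave -0.23 in NPY1R high and -0.61 in NPY1R low between replicates 3 and 4 and replicates 1 and 2, smaller than the differences JUNB showed. For JUND the trend gave -0.84 in NPY1R low, while JUND itself differed by 0.02. For EGR3 and ATF3 the trend was within 0.02 of 0. With the trend of each library removed, FOS, FOSL2, EGR1 and JUN were again called, with edgeR adjusted p of at most 0.0249.

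Levels were compared between genes per length, as CPM per kb of the principal GENCODE 29 transcript. In NPY1R high cells FOSL2 (21.5 ± 2.05) and JUN (21.5 ± 1.52) came at the top, followed by FOS (17.4 ± 0.543) and EGR1 (13.01 ± 2.66; SD, n = 4 each). In NPY1R low cells the order was JUN (17.7 ± 0.822), FOSL2 (13.7 ± 0.746), JUND (10.8 ± 0.152), FOS (8.98 ± 1.11) and EGR1 (7.21 ± 2.19; SD, n = 4 each). FOSL2 and JUN overlapped in the high group, as did EGR1 and JUND, while in the low group FOS, EGR1 and JUNB each overlapped the next in order. FOS thus stood above JUND in every high library and below JUND in every low library, since FOS ranged from 16.7 to 17.9 against at most 10.4 in the high group, and reached 10.5 against at least 10.6 in the low group. The gap in the low group was small. Such an order between genes depends on the transcript lengths used and was not adjusted for GC content. ATF3, FOSB, EGR3 and FOSL1 took the last 4 places in both groups, with FOSL1 at 0.170 and 0.140 CPM per kb.

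Summed per length, the FOS family was higher in NPY1R high cells, at 39.5 to 44.0 CPM per kb, than in NPY1R low cells, at 22.0 to 25.4 CPM per kb. The JUN family overlapped between the groups, at 36.1 to 42.1 and 31.0 to 37.3 CPM per kb. The ratio of FOS to JUN family RNA was 0.957, 1.09, 1.10 and 1.20 in NPY1R high replicates 1 to 4, and 0.633, 0.715, 0.771 and 0.710 in NPY1R low replicates 1 to 4, with no overlap. FOSL2 and FOS together made up nearly all FOS family RNA in every library. FOSL2 took 49.9% to 55.5% of it in the high group and 53.2% to 59.7% in the low group, and FOS 39.2% to 45.05% and 35.03% to 41.7%. These sums describe the factors and carry no test.

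**Figure D3:**
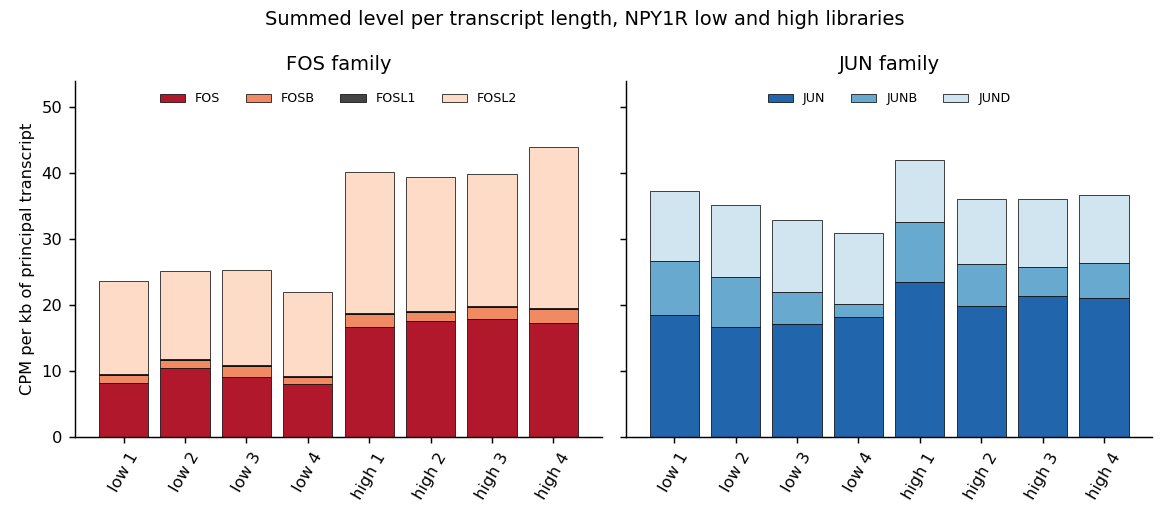
Stacked CPM per kb of principal transcript for the FOS family (left) and the JUN family (right) in each library, NPY1R low first. The FOS family bars run from 22.0 to 25.4 in the low and from 39.5 to 44.0 in the high libraries, while the JUN family bars overlap.

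Features of structure that the choice by symbol did not use were read for the factors, and they were not shared throughout. JUN, JUNB and JUND each have a principal transcript of 1 exon, as do 2.63% of 12317 tested coding genes. All 10 carry at least 1 ATTTA, the core of AU-rich decay elements, in the 3′ untranslated part of that transcript, as do 70.7% of tested coding genes. The density was 6.20 per kb for FOS and 4.00 per kb for JUNB, against a median of 1.65 per kb over tested coding genes, and the median of the 10 factors was 1.68 per kb. By density, FOS and JUNB stood at the top and EGR1 at the bottom, with 0.810 per kb.

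The wider pathway was read from 7 lists of other genes, chosen with earlier results of these data known. Of 165 tested genes on them, some of which stand on more than 1 list, 14 were higher and 18 lower in NPY1R high cells, where 5.78% of all tested genes were higher and 7.81% lower. The lists held 23 tested zipper partners of AP-1, 41 other immediate early genes, 37 upstream regulators, 24 inhibitors and decay factors, 20 AP-1 targets, 16 EGR targets and 14 heat shock genes. Their median log2 changes were -0.04, 0.07, -0.03, -0.16, 0.06, 0.13 and -0.09 in that order, where all tested genes had -0.03.

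**Figure D4:**
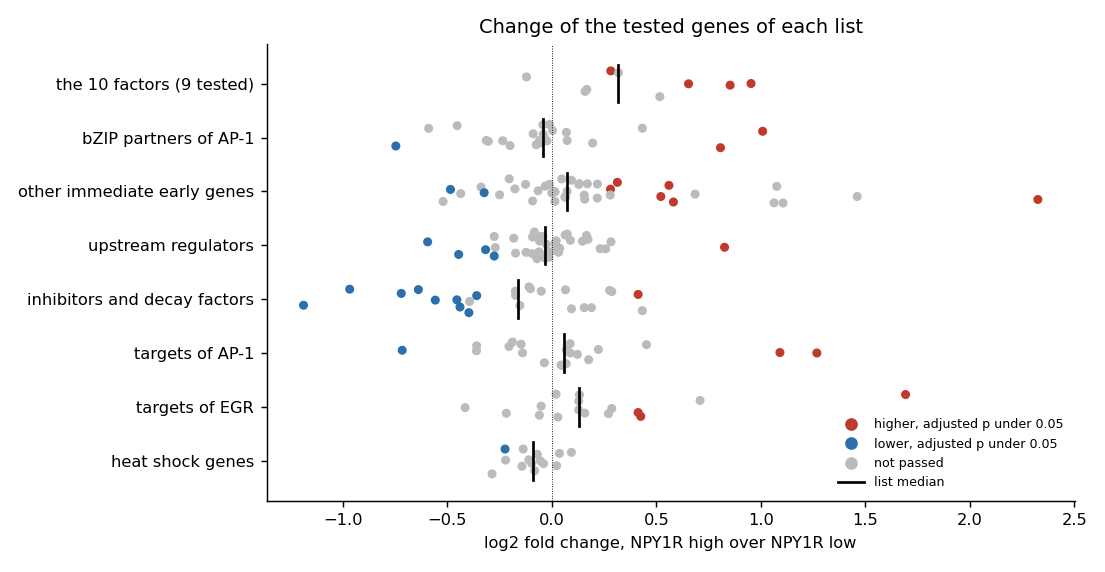
The log2 fold change of NPY1R high over NPY1R low for each tested gene of the factors and of the 7 lists, with the list median as a black line. Red points are higher and blue points lower at an adjusted p under 0.05; the list of inhibitors and decay factors holds 9 blue points and 1 red point.

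Of the 41 other immediate early genes tested, 6 were higher, 2 lower and 33 did not pass, where 5.78% of all tested genes were higher and 7.81% lower. CTGF, a secreted matricellular protein and target of YAP and serum response factor, rose by 2.32 on the log2 scale (SE 0.35), from 0.519 ± 0.276 to 2.60 ± 0.686 CPM (SD, n = 4 each). CYR61, its relative, rose by 0.58 (SE 0.11) and the growth regulator MYC by 0.56 (SE 0.07). The polo-like kinase PLK2 had a log2 change of -0.49 (SE 0.11) and KLF4, a zinc finger factor, of -0.32 (SE 0.09), both lower past the threshold. The orphan nuclear receptor NR4A1, which is usually induced with FOS, did not pass, with a log2 change of -0.25 (SE 0.19). IER2 likewise did not pass, with 0.22 (SE 0.07, edgeR adjusted p = 0.088), but passed in DESeq2 (0.0416), with that replicate term (0.0302) and in replicates 1 and 2 alone (0.0139). The call of KLF4 was lost whichever library was left out (edgeR adjusted p 0.0545 to 0.138). It was also lost with every other scaling and filter tried (edgeR adjusted p 0.0683 to 0.109), and was kept in 4 of 22 alternatives. The call of PLK2 was lost without NPY1R low replicate 1 (0.0559).

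Among zipper partners, 2 of 23 were higher and 1 lower, a share near that of all tested genes. MAF, a large MAF protein of differentiation programmes, rose by 0.81 (SE 0.20), with 1.62 against 0.926 CPM, and the small MAF protein MAFF, which lacks an activating domain, had a log2 change of -0.75 (SE 0.20) and was lower past the threshold. The call of MAF was lost when NPY1R high replicate 1 or 2 or low replicate 1, 2 or 3 was left out (edgeR adjusted p 0.0523 to 0.0753). That of MAFF was lost when NPY1R high replicate 1, 2 or 4 or low replicate 2, 3 or 4 was left out (0.0504 to 0.111), and with upper-quartile scaling (0.0534).

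Of 37 tested upstream regulators, 1 was higher and 4 were lower, a share near the 13.6% of all tested genes. RPS6KA3, the ERK-activated kinase RSK2 that can phosphorylate CREB and FOS, rose by 0.83 (SE 0.16), from 115.7 ± 20.9 to 205.1 ± 39.4 CPM (SD, n = 4 each). RPS6KA5, the kinase MSK1 that acts on CREB and on histone H3 at immediate early genes, was lower, with a log2 change of -0.59 (SE 0.08). MAPK9, the JUN kinase JNK2, had -0.45 (SE 0.05) and the ERK pathway kinase BRAF -0.32 (SE 0.07), also lower past the threshold. SRF, which encodes serum response factor, was at 30.4 ± 2.71 and 30.1 ± 2.86 CPM (SD, n = 4 each) (edgeR adjusted p = 0.948). The call of BRAF was lost without NPY1R high replicate 3 (edgeR adjusted p 0.0643) or 4 (0.0835), or NPY1R low replicate 3 (0.0503) or 4 (0.0526).

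Inhibitors and decay factors were more often lower than higher, with 9 of 24 lower and 1 higher, where 7.81% of all tested genes were lower. SPRY4, a Sprouty inhibitor of receptor tyrosine kinase signalling, had 4.33, 5.09, 2.93 and 3.19 CPM in NPY1R high and 11.4, 10.1, 6.86 and 7.23 CPM in NPY1R low replicates 1 to 4, with no overlap. Its log2 change was -1.19 (SE 0.22). DUSP5, a nuclear ERK phosphatase, was at 6.61 ± 0.634 CPM in the high group against 12.9 ± 0.603 in the low group (SD, n = 4 each), with a log2 change of -0.97 (SE 0.10). SPRY1 had a log2 change of -0.72 (SE 0.14), also with no overlap.

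The same direction was seen in other MAP kinase phosphatases of the list, which are named here after their values were seen. DUSP4 was at 386.4 ± 25.3 CPM in the high group against 601.5 ± 56.1 in the low group, and DUSP6 at 48.0 ± 1.96 and 70.7 ± 5.08 CPM (SD, n = 4 each). Both are themselves induced by ERK signalling and switch MAP kinases off. Of the 12 DUSP, SPRY and SPRED genes on the list, a grouping made after their values were seen, 8 were lower past the threshold and none higher. Of all tested genes, 7.81% were lower and 5.78% higher. The 8 are among the 9 lower genes of the list and are not a separate result. The 4 that did not pass were DUSP8, with a log2 change of -0.15 (SE 0.17), DUSP16 with -0.17 (SE 0.06), SPRY2 with 0.28 (SE 0.16) and DUSP1. DUSP2, on the list of other immediate early genes, had 1.46 (SE 0.51) and did not pass (edgeR adjusted p = 0.0933). DUSP1, a phosphatase that is itself an immediate early gene, was at 62.9 ± 3.13 CPM in the high group against 60.1 ± 2.06 in the low group (SD, n = 4 each).

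**Figure D5:**
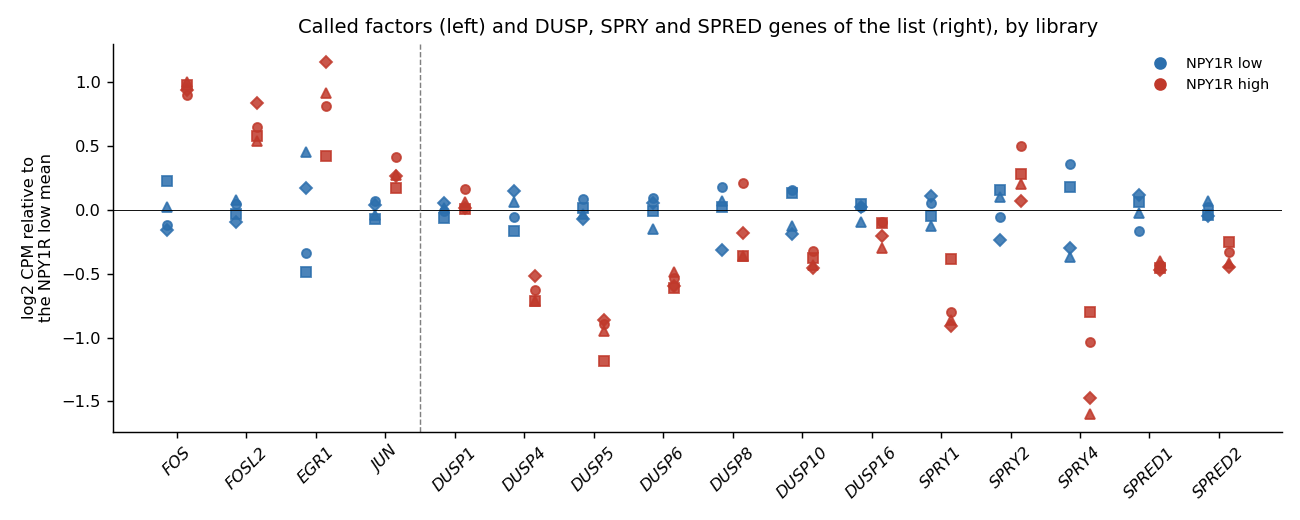
CPM in each library relative to the NPY1R low mean of that gene, on a log2 scale, for the 4 called factors (left of the dashed line) and for the 12 phosphatase, Sprouty and SPRED genes of the inhibitor list (right); symbols are replicate numbers as in the plot of CPM by library. The red NPY1R high points lie above the blue ones for FOS, FOSL2 and JUN and below them for 9 of the 12 genes on the right, while DUSP1, DUSP8 and SPRY2 overlap. Of all tested genes, 8.77% lie above and 11.4% below without overlap. The 12 genes were grouped after their values were seen.

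NAB1 and NAB2 encode corepressors that bind EGR1, and NAB2 is also its target. NAB1 rose by 0.41 (SE 0.09), a call that was lost without NPY1R high replicate 1 (edgeR adjusted p 0.0511), while NAB2 did not pass, with 0.29 (SE 0.12, edgeR adjusted p = 0.164). NAB2 passed with the GC offset (0.0249) and with that replicate term (0.0483). ZFP36, which binds AU-rich elements and speeds decay of immediate early RNAs, had a log2 change of 0.15 (SE 0.08) and did not pass.

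Of 20 tested AP-1 targets, VIM and IVL were higher and VEGFA lower, a share near the 13.6% of all tested genes, and MMP3 and IL6 had no count in any library. VIM, the intermediate filament vimentin, rose by 1.09 on the log2 scale, with 115.4 ± 10.3 CPM against 54.2 ± 6.89 in the low group (SD, n = 4 each) and an SE of 0.10. IVL, the cornified envelope protein involucrin, rose by 1.27 (SE 0.25), with 1.17 against 0.493 CPM, and the angiogenic factor VEGFA had a log2 change of -0.72 (SE 0.13). Of 16 tested EGR targets, 3 were higher and none lower, where 5.78% of all tested genes were higher. THBS1, the matrix protein thrombospondin 1, rose by 1.69 on the log2 scale, with 314.4 ± 29.5 CPM against 97.3 ± 6.10 in the low group (SD, n = 4 each) and an SE of 0.08. SLC9A3R1, a scaffold protein of the apical membrane, rose by 0.42 (SE 0.12), and NAB1 was also on this list. The call of SLC9A3R1 was lost without NPY1R high replicate 1 (edgeR adjusted p 0.0871), 2 (0.0546) or 4 (0.0803) or NPY1R low replicate 3 (0.0903).

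Heat shock genes, which respond to proteotoxic stress and to handling of cells, were read beside the factors. None of the 14 tested was higher, where 5.78% of all tested genes were, and 1 was lower, where 7.81% were. That gene was HSPH1, with a log2 change of -0.22 (SE 0.06, edgeR adjusted p = 0.0475). Its call remained without NPY1R high replicate 3. It was lost without any other library (0.062 to 0.187) and with upper-quartile scaling (0.197). The summed level of the heat shock genes was 9374 to 10501 CPM in NPY1R high and 10163 to 11002 CPM in NPY1R low libraries.

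The genes most like FOS, JUN and EGR1 were sought among 10442 tested genes with a mean of at least 5 CPM, by Pearson's r over the 8 libraries after subtracting the group means. They included FAM156A, CDC14B, PIGG and ADAMTS1 for FOS (0.957 to 0.900), STAG3L4, HILPDA, CHMP7 and FAM129A for JUN (0.968 to 0.946), and ZMYND8, LINC00346 and TTC28-AS1 for EGR1 (0.971 to 0.964). No other factor of the 10 was among the 4 nearest of each, but EGR3, ATF3 and FOSL1 averaged under 5 CPM and were not compared. Taken directly, the r of EGR1 was 0.941 with EGR3 and 0.919 with ATF3. With the other tested factors it ran from -0.574 (JUNB) to 0.782 (FOSB). With 8 libraries and so many genes, such values are a description of these libraries only.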

How the data were processed

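RNA of 8 libraries was sequenced. The authors deposited a table of expected counts by gene symbol that had not been normalised; the submitters' processing notes name STAR 2.5.2, RSEM 1.3.0 and hg38. The annotation and strand setting are not given in the sources used here. The 8 single-sample tables held the same values as the series table (0 values differed, and columns of unmatched samples numbered 0). Expected counts were rounded, filtered with edgeR's filterByExpr (minimum count 10), scaled by TMM and compared between the groups of 4 libraries with the quasi-likelihood test (edgeR 4.0.16, R 4.3.3), adjusted by Benjamini-Hochberg over all 14008 genes with a threshold of 0.05. Library totals of 18025648 to 30609791 set the counting precision. The standard error of a log2 change was taken from its F statistic. CPM used TMM effective library sizes.

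The factors, gene lists, naming rule and alternatives were chosen with earlier results of these data known. All 10 factors were named, with at most 3 called genes per list and direction and a few fixed genes. Transcript length, GC content (94.2% of tested genes matched) and decay elements came from GENCODE 29, and promoters from RefSeq, in which FOSL1 had no entry and EGR3 was not used. The procedure was tested on simulated data. Alternatives used DESeq2 1.42.0 and limma 3.58.1, other scalings and filters, a GC offset (spline with 5 degrees of freedom), replicate terms and subsets, and leaving out each library. Results for a few genes are not reported here.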

Additional observations from a re-analysis of the deposited data

Results flagged for a closer look

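FOSB in NPY1R low replicate 3 had 6.09 CPM, while NPY1R low replicates 1, 2 and 4 had 4.12 to 4.33 CPM. By Dixon's criterion it lay apart, with a gap equal to 0.896 of what separated the lowest from the highest of the 4 libraries. The criterion was applied to 22 sets of 4 libraries, of which chance alone marks about 1.1, and it marked this 1. Leaving the library out gave FOSB a log2 change of 0.66 (edgeR adjusted p = 0.0581).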

How the results depend on the processing

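Of 969 values computed under alternatives, 845 stayed the same. For a gene this means the same direction and call, and for a count a value within 1.5 times. Of the rest, 78 lost the call, 12 gained it, 24 counts moved by more than 1.5 times and 10 reversed. FOS and FOSL2 were called higher in all 22 alternatives each, JUN in 18 and EGR1 in 17. Causes were not tested, other than that subsets hold fewer libraries.

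JUN had an edgeR adjusted p of 0.121 in replicates 3 and 4 alone, ATF3 0.0287 in replicates 1 and 2 alone, and FOSB 0.0132 with the replicate block and GC offset. With each library left out in turn, edgeR adjusted p ran from 0.0093 to 0.0584 for JUN, 0.0137 to 0.0746 for EGR1, 0.0432 (without NPY1R high replicate 2) to 0.223 for FOSB, 0.603 to 0.936 for JUNB, 0.573 to 0.99 for EGR3 and 0.604 to 0.999 for SRF. The sign reversed for JUNB without NPY1R high replicate 1 (0.936) or low replicate 4 (0.859), and for EGR3 without NPY1R high replicate 4 (0.885) or low replicate 1 (0.99) or 2 (0.984). SRF reversed without NPY1R high replicate 1 (0.99), low replicate 3 (0.999) or low replicate 4 (0.973) and in replicates 1 and 2 alone (0.763), and NR4A1 in replicates 3 and 4 alone (0.999). None of these reversals passed the threshold.

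Over all tested genes, 810 higher and 1094 lower calls became 1340 and 2013 under the replicate block plus GC offset, 1421 higher in replicates 1 and 2 alone, 445 and 443 in replicates 3 and 4 alone, and 470 and 562 at an adjusted p under 0.01. The GC offset alone gave 1796 lower calls, and a model term separating replicates 1 and 2 from 3 and 4 gave 1681. Leaving out a library gave 624 to 1068 higher and 625 (without NPY1R high replicate 4) to 1064 lower calls. Of the factors, 2 to 5 were called higher with a library left out, 2 of them without NPY1R high replicate 1 or low replicate 2, and 2 at an adjusted p under 0.01. Pathway genes called higher and lower, 14 and 18, became 24 and 28 under the replicate block plus GC offset, 26 and 28 under the replicate term, 24 and 29 in replicates 1 and 2 alone, and 7 lower in replicates 3 and 4 alone. With a library left out they were 9 to 14 and 11 to 18.

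Replicate numbers were not used to pair the libraries in the main fit, since the labels name no shared origin. Same-numbered libraries had correlations of 0.339, 0.157, 0.0907 and 0.0178 after subtracting the group means. These values cannot settle whether the libraries were paired. The replicate block gave 805 higher and 1028 lower genes, while EGR1 had an edgeR adjusted p of 0.00184 and JUN of 0.0161. EGR2 gained a call under it (0.046, and 0.023 with the GC offset), and KLF4 (0.0609) and MAF (0.0564) lost theirs. NAB2 gained one with the block and GC offset (0.0166). FOSL1, with 4 to 11 counts, was below what this depth can compare.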
